A study of Gasterosteus aculeatus with 18 samples.

Results

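The 126 genes described here had lower normalized read counts in threespine stickleback eggs given the high dose of cortisol than in eggs given none or the low dose. They were picked from 16103 genes by their values alone. In each of 6 replicate numbers the high pool had to lie below both the control and the low pool of the same number. That held for 198 genes (1.23% of those tested). Genes with 1 fixed order of the 3 pools in 5 or 6 of the numbers were then left out, 64 with control below low and 8 with low below control, so that the members (0.782% of those tested) have no steady order of control and low.

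RNA came from 18 wild type pools of Gasterosteus aculeatus eggs, with 10 eggs from a clutch in each pool, taken 72 hours post fertilization. Control pools had 0 µg/L of cortisol, low pools 5 µg/L and high pools 10 µg/L, with 6 pools in each group. In the submitters' design these doses stand for a baseline, a level that predators bring about in the mother, and one beyond the physiological range. The labels name the agent of both treated groups as maternally derived cortisol, and they do not say whether pools of 1 number came from 1 clutch or whether the clutches were separate, so p-values measure the spread between these pools only.

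Cortisol is the main glucocorticoid of bony fish. It enters cells, binds the glucocorticoid receptor, and the receptor with its hormone moves to the nucleus, where it raises some genes and lowers others. Fish mothers pass cortisol into their eggs, and an embryo meets this hormone before its own stress axis works. ABC transporters, which the study's title names, are membrane pumps that use ATP to move compounds out of cells. The deposited table names genes by Ensembl identifier only, and 0 of its 17253 identifiers occur in the RefSeq gene table at hand. The members are therefore given by identifier, with no gene name or role, and neither ABC transporters, hormone-responsive genes nor markers of embryonic tissues could be looked up among them. A pool holds whole eggs, so fewer cells of a type and less RNA per cell cannot be told apart.

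All values are the authors' normalized counts, which they scaled and then rounded. The deposited column totals ran from 8.36 M to 15.2 M after that scaling, which is not the read depth. Between 358 and 802 genes of the whole table had a value of 5 or less in 17 of the pools, and 1220 did in high pool 3, which stood apart. Without number 3 the rule kept 143 genes, and the counts of called members, the median decrease and the 2 named genes that moved most without that number are given with and without it.

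The members ranged from scarce to abundant. Their mean count over all pools ran from 11.6 to 14757, with a median of 189 and quartiles of 58.2 and 494. The 16103 genes tested had a median of 177 with quartiles of 62.5 and 454. None of the members was among the 100 genes with the highest means, and the most abundant member held rank 121. In 0 members did all high pools lie below all control pools (0.0435% of all genes) or below all low pools (0.0124%), shares too small for a list of 126 to be read against. The members took 0.457% to 1.15% of the deposited total of a control or low pool and 0.306% to 0.925% of that of a high pool. In 10 members at least 1 pool had a count of 5 or less, and 1 member was listed at 0 in a high pool.

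The decreases were mostly moderate. On the log2(count + 1) scale, which understates changes of genes with low counts, the difference between the high pool and the mean of the control and low pools of its number, averaged over the 6 numbers, had a median of -0.39 over the members. That is a count 23.8% lower. The quartiles were 16.4% and 33.1% lower, and the extremes 7.74% and 59.04% lower. The median over all genes tested was -0.0086. The member with the largest decrease had a mean count of 17.0, and its gap was widest in number 3, where the high count was 1. In 7 members the decrease exceeded 1 on the log2 scale, and in 16 it was under 0.2. These values describe the choice and carry no test, because the rule used them.

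**Figure D1:**
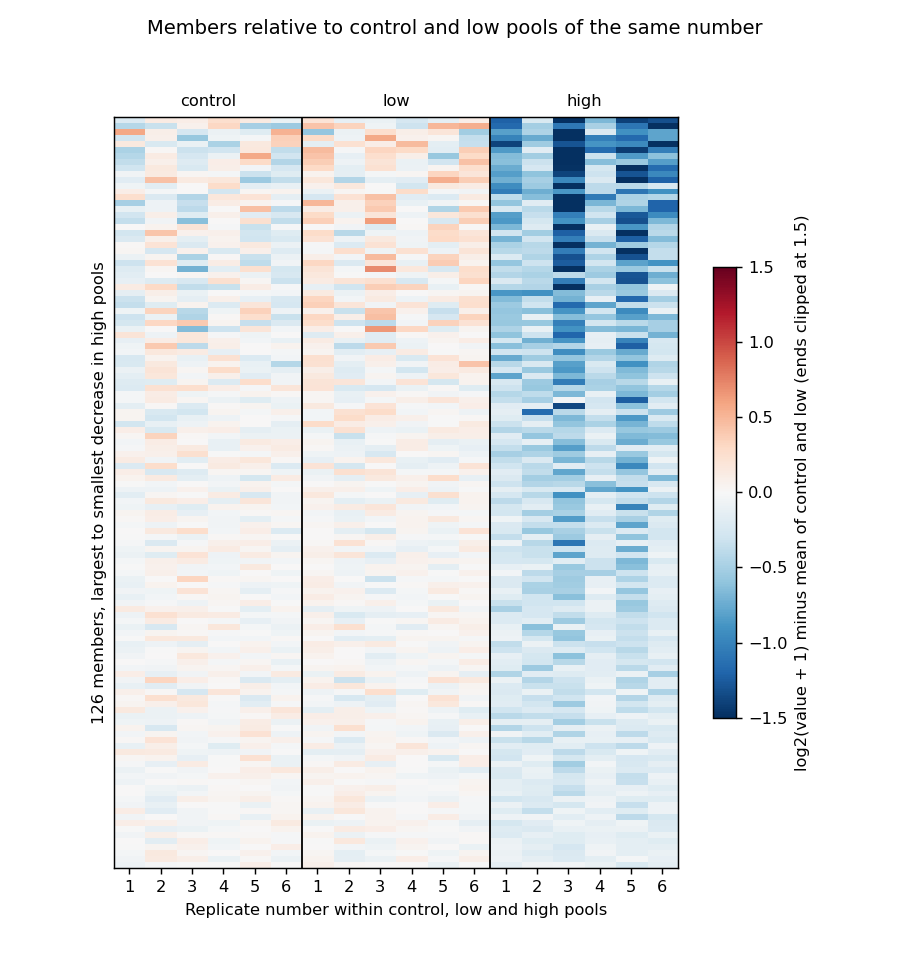
Heat map of the 126 members (rows, from the largest to the smallest decrease) in the 18 pools (columns, by group and replicate number), coloured by log2(count + 1) minus the mean of the control and low pools of the same number. Control and low columns mirror each other, because their mean is the reference. High columns are blue throughout, as the rule requires, and high pools 3 and 5 are the darkest.

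ENSGACG00000013876 was the most abundant member. Its counts in pools 1 to 6 were 10422, 41942, 7216, 18947, 11829 and 10001 in control, 11199, 34589, 6985, 19807, 18502 and 12851 in low, and 6085, 25071, 2717, 15658, 6020 and 5788 in high pools. The high pool was the lowest of every number, yet high pools 2 and 4 exceeded most control pools, so the groups overlapped. Over the 6 numbers the gene was 46.4% lower in high pools, with a log2 difference of -0.90 ± 0.12 (SE, limma with a replicate block). In its narrowest number, number 4, the high count was 17.4% below the lower of the other 2, and in its widest, number 3, it was 61.1% below.

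ENSGACG00000007182, the next in abundance, differed from it in which pools were lowest. It had 2407, 13823, 4261, 9287, 6409 and 2460 in control, 3589, 12274, 5484, 8319, 8081 and 3451 in low, and 1664, 10276, 2369, 7164, 2979 and 1513 in high pools. Pool 2 was the highest of each group, as in ENSGACG00000013876, but pools 1 and 6 were the lowest, where ENSGACG00000013876 was lowest in pool 3. The log2 difference was -0.78 ± 0.11 (SE).

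ENSGACG00000001432 had the smallest p among the members. Its counts were 313, 493, 126, 202, 194 and 468 in control, 274, 514, 124, 294, 185 and 436 in low, and 142, 303, 68, 186, 88 and 240 in high pools. Here pools 2 and 6 were the highest in every group and pool 3 the lowest. Control and low lay close together, with a log2 difference of low minus control of 0.036, against -0.84 ± 0.092 (SE) for high minus the mean of both.

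ENSGACG00000001267 was lower by a wide margin in every number. It ranged from 61 to 189 with a median of 98.0 in control, from 64 to 213 with a median of 106.5 in low, and from 26 to 125 with a median of 45.5 in high pools. High pool 2, at 125, stood above the other high pools, which reached 55 at most. The log2 difference was -1.097 ± 0.16 (SE), and the narrowest gap was 18.8% in number 2.

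ENSGACG00000017338 and ENSGACG00000000913 also had p-values among the lowest of the members. The former had medians of 1696 (control), 2378 (low) and 902.5 (high) and a log2 difference of -0.71 ± 0.11 (SE). The latter had medians of 364, 382 and 206.5 and a log2 difference of -0.64 ± 0.10 (SE). In both genes the lowest high pool lay below every control and low pool and the highest lay well inside the range of the other groups.

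**Figure D2:**
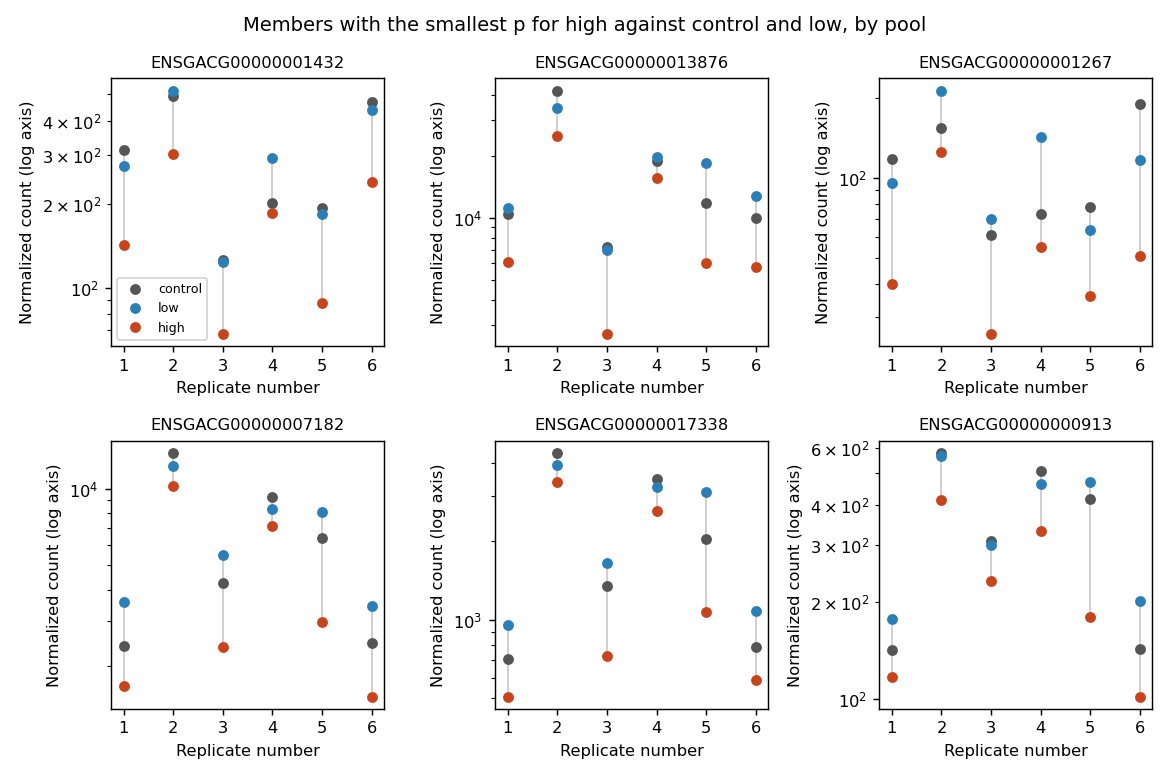
Normalized counts (log axes) of 6 members in every pool by replicate number, with control in grey, low in blue and high in red. The red point is the lowest of each number, while counts differ more between numbers than between doses, as for ENSGACG00000013876 with 41942 in control pool 2 and 7216 in control pool 3.

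Several of the largest decreases were widest in number 3. ENSGACG00000000568 had 134, 181, 84, 70, 70 and 145 in control, 59, 160, 119, 79, 91 and 70 in low, and 50, 123, 8, 64, 42 and 58 in high pools. Its log2 difference was -3.49 in number 3 and -0.21 in its smallest number, with -1.11 ± 0.30 (SE) on average. Without number 3, or without high pool 3 alone, the average was -0.64, and with the number of genes of low value as a covariate it was -0.53. ENSGACG00000017908 had 74, 270, 37, 239, 311 and 109 in control, 134, 228, 53, 268, 142 and 163 in low, and 63, 172, 4, 203, 116 and 87 in high pools. Its difference was -3.18 in number 3 and averaged -1.02 ± 0.27 (SE). Without number 3, or without high pool 3, the average was -0.59, and with the covariate it was -0.31. High pool 3 held the lowest count of all 18 pools in both genes. ENSGACG00000002871 had control counts from 118 to 711 and high counts from 63 to 537, and its difference of -0.90 ± 0.15 (SE) was widest in number 5. ENSGACG00000014497, with medians of 43.0 (control), 50.5 (low) and 25.5 (high), was 62.5% below the lower of the other 2 pools in number 3 and 6.67% below in number 1.

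Several abundant members differed little on average, though some had a wider gap in a single number. ENSGACG00000018188 had 3421 to 3899 (median 3710) in control, 3263 to 4016 (median 3740) in low and 2991 to 3821 (median 3359) in high pools, which is 7.74% lower, the smallest decrease of any member. ENSGACG00000014884 was 11.7% lower, with medians of 3534 (control), 3563 (low) and 3185 (high), and ENSGACG00000016447 12.6% lower, with medians of 3424, 3437 and 3078. These genes also varied little between numbers, with an SD over the control pools of 0.065, 0.073 and 0.12 on the log2 scale. ENSGACG00000014944 was alike, with an SD of 0.084 and medians of 526, 539.5 and 472. The widest gap to the lower of the other 2 pools was 9.08% in number 6 for ENSGACG00000018188. It was 22.4% and 24.5% in number 3 for ENSGACG00000014884 and ENSGACG00000014944, and 17.5% in number 5 for ENSGACG00000016447. ENSGACG00000006511 was 19.2% lower in high pools, and its pool 3 was the lowest of each group, at 2695 (control), 2833 (low) and 1961 (high), where the other pools ran from 4462 to 7153.

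How closely members met the rule varied. The narrowest gap, that is how far the high count lay below the lower of the other 2 in the number where they were closest, had a median of 3.60% and reached 27.8%. Just inside were ENSGACG00000000973, with high at 306 against control at 307 and low at 355 in number 3, ENSGACG00000007309, with 910 against 913 and 1038 in number 6, ENSGACG00000005912, with 246 against 255 and 247 in number 5, and ENSGACG00000004833, with 903 against 949 and 907 in number 4. Just outside were ENSGACG00000002465, with 263 in both high and low pool 1, ENSGACG00000004825, with 205 in both, ENSGACG00000016198, with 351 in high and low pool 2, and ENSGACG00000019128, with 69 in high and low pool 3. In the other 5 numbers the high count of these genes was below both others. For ENSGACG00000002465, ENSGACG00000016198 and ENSGACG00000019128 the border is thus a difference of a few counts. ENSGACG00000004825 also had low below control in every number but 5. With a lower high count in pool 1 the exclusion of ordered genes would therefore leave it out. A gap of at least 10% in every number left 16 genes, with means from 11.6 to 14757 and log2 differences from -1.14 to -0.40. Among them are ENSGACG00000013876, ENSGACG00000007182, ENSGACG00000017338, ENSGACG00000000913, ENSGACG00000017908 and ENSGACG00000001267.

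The scaling of the libraries also decides who is a member. With columns set to equal totals 149 genes met the rule, of which 52 were among the 126. With median ratios it was 135 and 116, and with quantile normalization 117 and 79.

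High pools were compared with the other groups over all genes with limma on all 18 pools, with p-values adjusted over 16103 genes by the Benjamini-Hochberg method and called under 0.05. The rule used the same pools and differences, so these fits cannot show whether the members stand out, and their counts and p-values for members are descriptions. Without a replicate block limma called 0 members and 0 genes in each of the 4 comparisons (0.0% of genes lower). An unadjusted p under 0.05 was reached by 366 genes, 34 of them members, for high against the mean of control and low, by 158 genes with 16 members against control, and by 385 genes with 22 members against low. For the 6 members with the smallest p the adjusted p was 0.9999 each without the block.

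With the replicate number as a block, limma called 88 of the 126 members lower in high pools than in the mean of control and low, where 3.42% of all genes were called lower. The smallest adjusted p-values were 0.000166 for ENSGACG00000001432, 0.000479 for ENSGACG00000013876, 0.000672 for ENSGACG00000001267, 0.000757 for ENSGACG00000007182, 0.0011 for ENSGACG00000017338 and 0.00145 for ENSGACG00000000913. Of the abundant members with small changes, ENSGACG00000018188 (0.217), ENSGACG00000014884 (0.0696) and ENSGACG00000014944 (0.0846) were not called. ENSGACG00000016447 (0.0480) and ENSGACG00000006511 (0.0123) were. Against control alone 22 members were called lower (0.441% of all genes), which is 17.5% of the members and 31.0% of the 71 genes called lower. Against low alone 66 were (3.73% of all genes), which is 52.4% of the members and 11.0% of the 600 genes called lower. Both comparisons share the high pools, and nothing is read from the counts.

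The called members, like the calls over all genes, depended on single pools. The count of 88 members called in the blocked fit against the mean of control and low became 27 without number 3 (0.845% of all genes were then called lower), 39 without number 5 (1.29%), and 53, 70, 60 and 53 without numbers 1, 2, 4 and 6. Leaving out 1 pool gave 34 without high pool 5 and 36 without high pool 3, and 60 to 85 without any of the other pools. The 1155 calls over all genes, in either direction, moved too. They fell to 358 without number 3 and to 351 without high pool 5. Without number 2 they rose to 1191, while the called members fell to 70. The changed counts of members are therefore not read as particular to the members. Against control the count of 22 became 6, 2, 7, 7 and 12 without control pools 2 to 6, 14 without low pool 1 or 6, and 9, 7, 2 and 7 when high pool 1, 3, 5 or 6 was left out. In the same order the 188 calls over all genes became 54, 24, 68, 77 and 119, then 134 and 127, then 86, 64, 23 and 54. Leaving out any of the other pools gave 19 to 24 members, with 170 to 265 calls over all genes. Against low the count of 66 became 36, 35 and 33 when low pool 1, 3 or 6 was left out, and 33 and 38 when high pool 3 or 5 was. In each of these fits the 1300 calls over all genes fell as well, to 633 without low pool 6. Without control pool 5 they rose to 1579, and 75 members were called. Leaving out any of the remaining pools gave 53 to 67 members.

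The size of the decrease differed between replicate numbers. The median member was 17.3% lower in high pool 1 than in the control and low pools of its number, 19.5% lower in pool 2, 31.5% in pool 3, 14.2% in pool 4, 27.6% in pool 5 and 15.1% in pool 6. Numbers 3 and 5 held the widest gap for 55 and 45 of the members, and number 4 held the narrowest for 36. The median over all genes tested lay between -0.0028 and 0.015 on the log2 scale in every number.

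The count of genes of low value was raised most in the 2 high pools with the largest decreases, and over the other numbers the 2 orders differed. High pool 3 had 552.5 more genes valued at 5 or less than the mean of its control and low pool, high pool 5 had 282.5 more and high pool 4 had 105 more, while the differences were 11.5, -5.5 and -2.0 in numbers 1, 2 and 6. With that number as a covariate in the blocked fit, 7 of the 126 members were called lower, of 24 genes called lower in all (0.149% of those tested). Without the covariate 88 members were called. The median estimate over the members was -0.30 with a median SE of 0.11 with the covariate, against -0.39 and 0.094 without it. All 126 estimates were below 0, but the rule required a lower high count in every number, so nothing is read from their sign. Without number 3 the median was -0.35, and without number 5 it was -0.36. Whether this measure had a part in the decreases was not tested.

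**Figure D3:**
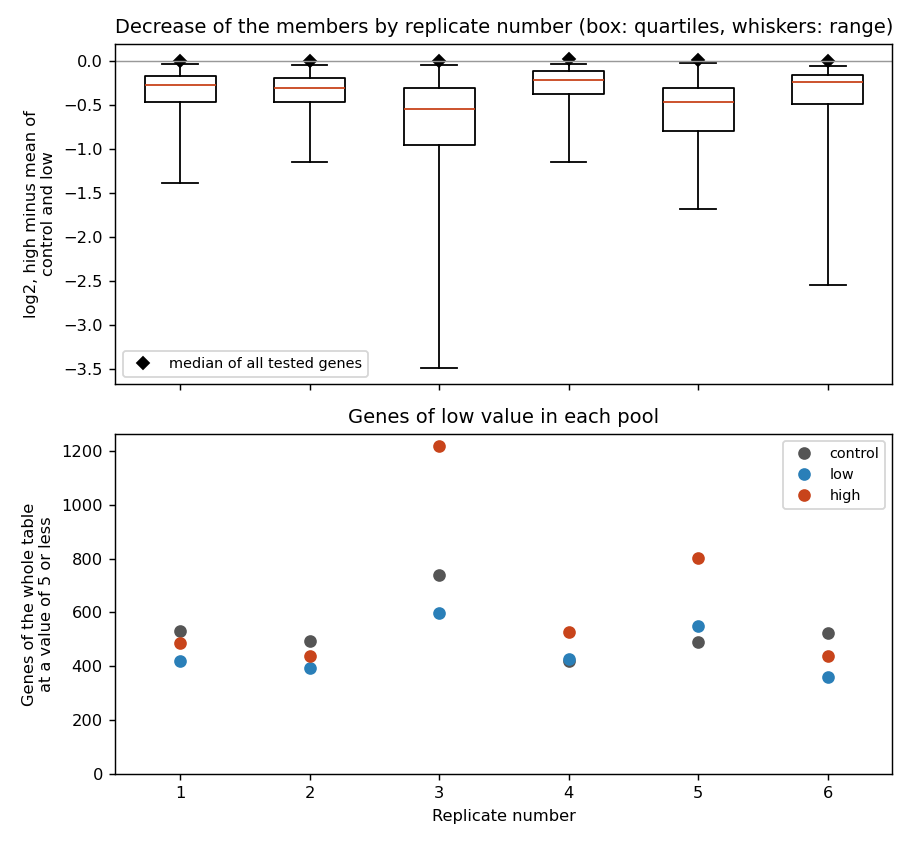
Upper panel, log2 difference of high minus the mean of control and low for the 126 members in each replicate number, as boxes with whiskers over the whole range, with the median of all tested genes as diamonds. Lower panel, number of genes of the whole table at a value of 5 or less in each pool, where high pools 3 and 5 have 1220 and 802 and are the highest of the 18.

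Members of low abundance had the larger decreases. The 23 members with a mean under 50 had a median log2 difference of -0.58, the 72 with a mean from 50 to 500 one of -0.38, and the 31 at 500 or more one of -0.28. Over all genes in these classes the medians were -0.087, -0.0073 and 0.029, so genes of low abundance in general lay slightly lower in high pools. The decreases were also larger in members that varied more between control pools. The 63 members above the median SD of the control pools had a median difference of -0.57 and the other 63 one of -0.27. Over all genes split at the same SD the medians were -0.021 and 0.00012. The rule chose members by this decrease, and a scarce or variable gene needs a larger one to be lower in every number. Neither difference between classes of members is therefore read as a result.

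Low cortisol against control, the dose that stands for predator exposure, is described for the members only within the limits of the rule. Low and control pools lay close together, with a median log2 difference over the members of 0.032 (quartiles -0.027 and 0.10), and 0.0020 over all genes. Limma called 0 members and 0 of 16103 genes, without or with the block, and 0 and 1 members had an unadjusted p under 0.05 in the 2 fits, against 78 and 1782 of all genes. By its exclusions the rule itself holds the order of low and control near balance, so neither this closeness nor the small counts of members is a finding. The low count exceeded the control count in 4 numbers for 53 members, in 3 for 47, in 2 for 25 and in 1 for 1 member.

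Within single numbers the order was less even. The low pool was above the control pool for 71.4% of the members in number 1 and 69.0% in number 6, and for 38.9% in number 5 and 41.3% in number 2. In numbers 3 and 4 it was 50.8% and 49.2%. Over all genes these shares ran from 48.1% to 50.3%. The exclusions used the order of low and control over all 6 numbers and treated the numbers alike. Why the shares of the members differ between numbers was not tested. The shares are given as descriptions and are not a finding. ENSGACG00000013640 had 742 in control and 1158 in low pool 1, 868 and 1202 in pool 6, and 5614 and 5265 in pool 2, as most members did, but in pool 5 it went against most of them, with 3126 and 3719. Without control pool 5 and without low pool 5 the blocked fit called 263 and 169 of all genes between low and control, and without number 5 it called 372. The counts without control pool 4 and without number 4 were 5 and 1, and 0 members were called in any of these fits.

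Whether genes chosen on some numbers were also lower in a number not used for the choice was read by applying the rule to 5 numbers at a time, with the exclusion at a fixed order in 4 or 5 of them. Of 185 genes chosen without number 1, 62.7% had the high count below both others in number 1, against 32.0% of all genes. The share was 39.9% of 238 genes for number 2 (32.0% of all), 72.0% of 143 for number 3 (36.8%), 45.2% of 199 for number 4 (33.2%), 76.2% of 122 for number 5 (36.4%) and 61.4% of 184 for number 6 (34.0%). The share was above that of all genes in 6 of 6 numbers, by 7.94 percentage points in number 2 and 39.8 in number 5. A gene chosen on 5 numbers that was also lower in the number left out is a member by the rule, 90 to 116 genes by number. The shares thus describe the choice of members and are not read as support for it. Genes that vary together are also not independent, so the shares are given without a test.

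**Figure D4:**
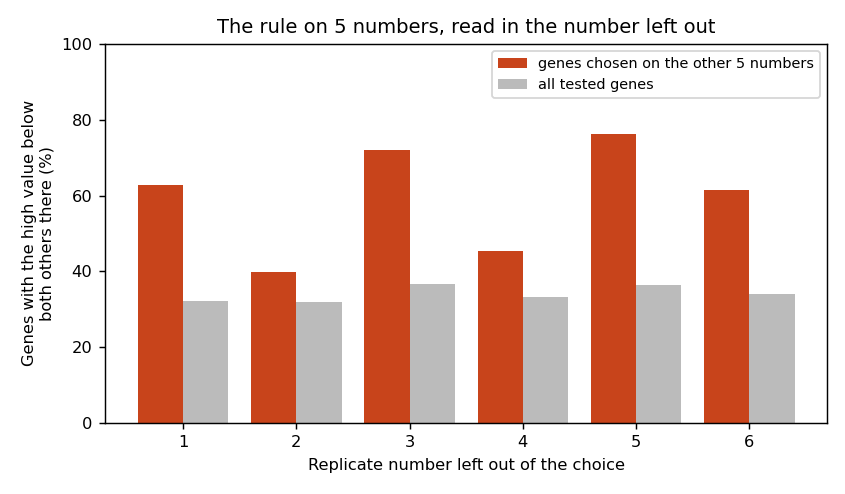
Share of genes whose high count lay below both the control and the low count in a replicate number that was not used to choose them (red), beside the share of all 16103 tested genes (grey). The red bars run from 39.9% in number 2 to 76.2% in number 5 and the grey ones from 32.0% to 36.8%. Chosen genes that were also lower there are members by the rule, so the red bars describe the choice.

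Differences between replicate numbers, which the rule did not use, were as common in the members as elsewhere. In the 12 control and low pools limma called a difference between numbers for 102 of 126 members (81.0%), where 78.3% of all genes were called. The SD over the control pools had a median of 0.43 on the log2 scale in members and 0.42 in all genes. Control pools 1 and 6 were both above control pools 3, 4 and 5 in 27 members (21.4%), where that held for 29.9% of all genes, and both below them in 37 (29.4%), where it held for 30.2%. In low pools the counts were 25 and 35 members, where the shares of all genes were 29.6% and 29.6%.

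The members were not 1 block in this respect. Grouped by the correlation of their log2 profiles over the control and low pools, with high pools left out and the number of groups set to 4 after the data were seen, they formed sets of 59, 48 and 18 and a lone gene, ENSGACG00000020890. With 3 groups the sets of 59 and 18 were joined. The median r between pairs within a set was 0.63, 0.50 and 0.51 over 12 pools, which share 6 numbers and the authors' scaling, while over all pairs of members it was 0.27. The grouping used these same correlations, so the higher r within sets follows from it. Pairs of genes outside the members were not examined, so the sets are not called particular to the members.

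Group A, the 59 members with ENSGACG00000013876, was high in numbers 2, 4 and 5 and low in numbers 1, 3 and 6. Relative to each gene's mean the median was 0.29, 0.41 and 0.28 in the former and -0.51, -0.23 and -0.30 in the latter. Group B, the 48 members with ENSGACG00000001432 and ENSGACG00000001267, was low in number 3, at -0.65, and between -0.042 and 0.18 in the other numbers. Group C, the 18 members with ENSGACG00000018188, was high in number 2, at 0.37, and low in number 5, at -0.23. The F test between numbers called 56 of the 59 members of group A, 38 of the 48 of group B and 8 of the 18 of group C. It called 78.3% of all genes, but not ENSGACG00000018188 (adjusted p 0.780). The grouping used the same 12 pools, so these counts are descriptions.

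High pools lay below the profile of their group by an amount that differed between numbers, so they followed its shape only in part. In group B the median decrease was -0.73 in number 3, where control and low pools were already lowest, and -0.22 to -0.52 in the others. In group A it was -0.53 in both numbers 3 and 5 and -0.19 in number 4. In group C it ran from -0.15 in number 4 to -0.41 in number 3. The blocked fit called 48 of the 59 members of group A, 29 of the 48 of group B and 11 of the 18 of group C, where 3.42% of all genes were called lower, and the rule used this difference.

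**Figure D5:**
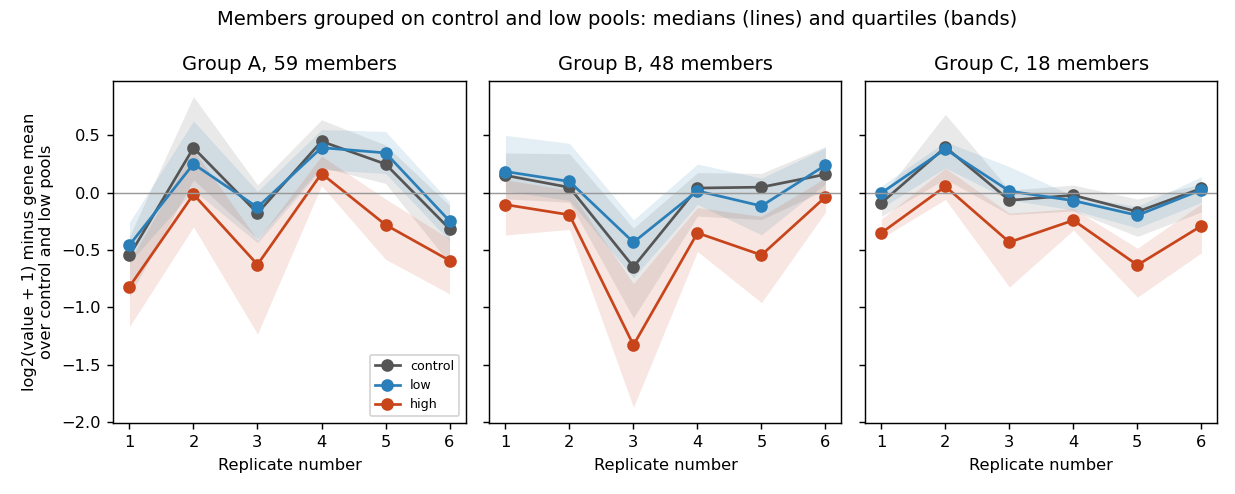
Median log2(count + 1) by replicate number for the members of groups A, B and C in control (grey), low (blue) and high (red) pools, each gene relative to its mean over control and low pools, with bands for the quartiles. The red line lies below the others at every number by the choice of members, at a distance that differs between numbers. Its deepest point is in number 3 of group B.

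Within group A a few members ran almost in parallel. ENSGACG00000013640 and ENSGACG00000017338 correlated with ENSGACG00000007182 at r = 0.990 and 0.989 over the 12 control and low pools, with 1 and 2 other genes of all those tested more alike. Over the 6 high pools r was 0.985 and 0.992. ENSGACG00000016598, ENSGACG00000000913 and ENSGACG00000002871 followed at r = 0.974, 0.972 and 0.960. At r of at least 0.95 there were 45 other genes (0.279% of all others tested), and these 5 members were among them. The most abundant member, ENSGACG00000013876, correlated with ENSGACG00000007182 at 0.82 over the control, 0.76 over the low and 0.84 over the high pools, and it had 10 members among 283 other genes at r of at least 0.8 (1.76% of all genes). ENSGACG00000013640 itself had medians of 2440 (control), 2705 (low) and 1342 (high) and a log2 difference of -0.59 ± 0.11 (SE, limma with the block), which the rule used.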

How the data were processed

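The authors deposited 1 table of normalized counts (treated here as scores) for 17253 genes in 18 pools, rounded to whole numbers, per the file headers and values. Per the submitters' processing notes the tools were edgeR, HTSeq, Cuffdiff with Cufflinks 2.2.0, TopHat and TopHat2 2.0.8, Bowtie2 2.1.0 and FastQC, with no roles stated. The scaling method, build and annotation were not given in the sources used here, and read depth was not estimated. A different scaling changes which pool of a number is lowest.

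Genes with a mean under 11.4 were left out (1150). Values were taken as log2(value + 1). The fit was made in limma 3.58.1 under R 4.3.3, on all 18 pools and with a trended variance, and was tested on simulated data. Differences between numbers were tested by an F test in the 12 control and low pools. Python 3.11.15, SciPy 1.17.1 and matplotlib 3.10.9 did the rest.

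The main fit has no replicate block, as no label pairs the pools. After removal of group means, same-numbered libraries correlated at a mean r of 0.78 (0.67 to 0.90 over 18 pairs), above the 0.1 required, so the numbers were taken as pairs from the data and blocked values are given. In 36 of 36 comparisons the best match was the library of the same number. The fit without the block counts differences between numbers as spread, so its 0 calls do not show that the doses were alike. SEs are from the blocked fit.

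The members and lists were chosen with earlier results of these data known. Genes were named by rule: the 8 largest decreases (mean of at least 50), the 6 most abundant, the 6 with the smallest blocked p, the 4 just inside and the 4 just outside, and the 3 most and 3 least variable over control pools. ENSGACG00000020890 and ENSGACG00000016598 were singled out after their values were seen. Lists by gene symbol could not be applied.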

Additional observations from a re-analysis of the deposited data

Results flagged for a closer look

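Of 79 sets of 6 pools or numbers checked with Dixon's ratio, 6 held a value past its 95% limit, where 5% of the sets is 3.95. The sets share pools and replicate numbers and are not independent, so nothing is read from that count. ENSGACG00000013876 stood at 41942 in control pool 2, with 7216 to 18947 in the other control pools. ENSGACG00000006511 stood at 2695 in control pool 3 (6017 to 7153 in the others) and at 2833 in low pool 3 (5680 to 7080). ENSGACG00000001267 stood at 125 in high pool 2 (26 to 55) and ENSGACG00000014497 at 123 in the same pool (12 to 52). In control pool 3 the number of genes valued at 5 or less was 738 (418 to 530 in the others).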

How the results depend on the processing

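The rule gave 16 genes with a gap of at least 10%, 198 with no exclusion of ordered genes and 122 to 238 without 1 replicate number. The median difference ran from -0.41 to -0.35 without 1 number, and the rule fixes its sign. The share of genes chosen on 5 numbers that were also lower in the number left out, 57.0% over all numbers against 34.1% of all genes, was 52.6% against 39.6% with column totals. Both shares count the same genes in more than 1 number. Every gene so counted meets the rule in all numbers under the scaling used. The shares therefore describe the choice and are not read as support for it under either scaling.

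Without the replicate block 0 genes were called in any comparison, also with a pseudocount of 5, no filter or quantile normalization. Beside the 1155 genes called with the block for high against the mean of control and low, the blocked fit gave 1186 with a pseudocount of 5, 1157 with no filter, 1023 at a mean of at least 50, 1065 with quantile normalization, 719 with column totals, 694 with no variance trend and 107 with the number of genes of low value as covariate. In the same order the 188 genes of high against control became 208, 186, 172, 196, 78, 19 and 39, and the 1300 of high against low became 1344, 1310, 1150, 1267, 966, 857 and 118. Without 1 number or pool the blocked counts ran from 351 to 1271, 18 to 265 and 505 to 1579, and from 0 to 372 for low against control. The block changed no call of low against control. The cause of the changed counts was not tested.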
